A study of Zea mays with 10 samples.

Results

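B73 anthers, the pollen-producing organs of the maize inbred line B73, were followed from the premeiotic stage to prophase I of meiosis in 4 RNA-seq libraries, 2 per stage. These are 4 of the 10 libraries of a series on 21-nt phasiRNAs (phased small RNAs of grass anthers) and the transcripts they act on. The other libraries are ms28 anthers and B73 and ms28 male germ cells, all at prophase I and 2 per group, and ms28 is a male-sterile mutant. No treatment is given for any group, and every B73 anther library carries the B73 genotype only. The libraries were chosen by their labelled genotype, tissue and stage. The gene models compared are the 25412 found in both anther tables, out of 43789 in the premeiotic table, 25460 in the prophase I anther table and 43838 in any of the 3 tables.

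An anther forms its wall layers, including the tapetum that feeds the germ cells, before the germ cells enter meiosis. In maize the 21-nt phasiRNAs, triggered by miR2118, are known to accumulate in premeiotic anthers, and the 24-nt class, triggered by miR2275, around meiosis. The transition from premeiosis to prophase I therefore spans the change from wall patterning and cell proliferation to meiosis and a maturing tapetum.

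All 25412 shared features are gene models known here by ID only. The reference table matched 0 of the 43789 premeiotic gene models, and the files do not pair IDs with names. No gene name, pathway or cell type can therefore be given, and the anther label could not be checked against markers. The 48 features of the prophase I anther table with no premeiotic row are all miRNA loci, so no miRNA precursor could be followed between the stages. No sequence could be matched to any of these features either.

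The tables were made separately and the unit of the premeiotic table is not named, so features were compared by percentile rank within each library. A percentile is the position of a feature among the 25412, from 0 for the lowest to 100 for the highest. A shift was counted when the prophase I library ranked the feature on the same side in all 4 pairs of a premeiotic with a prophase I library. No test was made across the tables, and 2 libraries against 2 could not give a two-sided exact permutation p below 0.333. Nothing says that the libraries of a stage came from separate plants, so their spread may be technical. Depth is unknown, because the values are not counts.

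The premeiotic libraries were close to each other and the prophase I libraries less so. The median feature stood 1.32 percentile points apart between the premeiotic libraries and 3.45 points apart between the prophase I libraries. Across stages the median distance was 7.75 and 7.66 points from the premeiotic libraries to prophase I replicate 1, and 5.73 and 5.77 points to replicate 2. Replicate 1 at prophase I thus lay further from premeiotic anthers than replicate 2 did. Across features, which are not independent replicates, the Spearman correlation was 0.994 between the premeiotic libraries and 0.955 between the prophase I libraries. It was 0.835 and 0.834 for replicate 1 against the premeiotic libraries, and 0.898 for replicate 2 against both.

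Most of the ranking was carried over from premeiosis to prophase I. Of the 6147 gene models in the top 25% of both premeiotic libraries, 75.9% were in the top 25% of both prophase I libraries. Of the 5996 in the bottom 25% before meiosis, 70.9% stayed in the bottom 25% of both. Of gene models between the bottom 25% and the median 50.03% stayed there, and of those between the median and the top 25% 51.6%. Among gene models listed at both stages, crossings from end to end were rare and mostly upward: 65 went from the bottom to the top 25% and 6 from the top to the bottom. Gene models not listed at prophase I could not enter the downward count, so this direction depends in part on the listing. Among the 100 most abundant gene models of each library, 97 were shared by the premeiotic libraries and 64 by the prophase I libraries. A premeiotic library shared 45 of its 100 with prophase I replicate 1 and 66 with replicate 2, so replicate 2 shared about as many with the premeiotic libraries as with the other library of its own stage.

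Ranked over the shared features, small falls were more frequent than small rises, and large rises more frequent than large falls. Gene models not listed at prophase I could not count as falls, so this order depends in part on which features were listed. The order of the large shifts turned around when each table was ranked over all its own features, which places 18377 further gene models in the premeiotic ranking alone. That ranking gave 19 rises and 136 falls of at least 50 points, and 158 and 7797 of at least 25 points. Over the shared features, in all 4 pairs 7766 gene models ranked higher at prophase I (30.6% of those compared) and 11925 ranked lower (46.9%), and 5721 (22.5%) had no shared direction. At 10 points or more the directions were nearly even, with 2691 higher (10.6%) and 2685 lower (10.6%). At 25 points or more 783 were higher (3.08%) and 228 lower (0.897%). At 50 points or more 182 were higher (0.716%) and 14 lower (0.0551%). Between the libraries of one stage, 4 gene models differed by 50 points or more in either direction before meiosis and 51 at prophase I. At 25 points those numbers were 14 and 567. Counted the same way, in single pairs of libraries, replicate 2 at prophase I stood at least 50 points above replicate 1 in 24 gene models and below it in 27. Single pairs across the stages gave 420 and 408 rises and 85 and 91 falls of that size with prophase I replicate 1, and 244 and 249 rises and 16 and 20 falls with replicate 2. The rises of each stage pair thus outnumbered the differences between the prophase I libraries, and the falls did so with replicate 1 but not with replicate 2. Without prophase I replicate 2 the large rises numbered 382 and the large falls 81, and the shifts of 25 points or more 1584 and 777. In RNA from whole anthers, fewer cells of a type and less RNA per cell cannot be told apart.

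**Figure D1:**
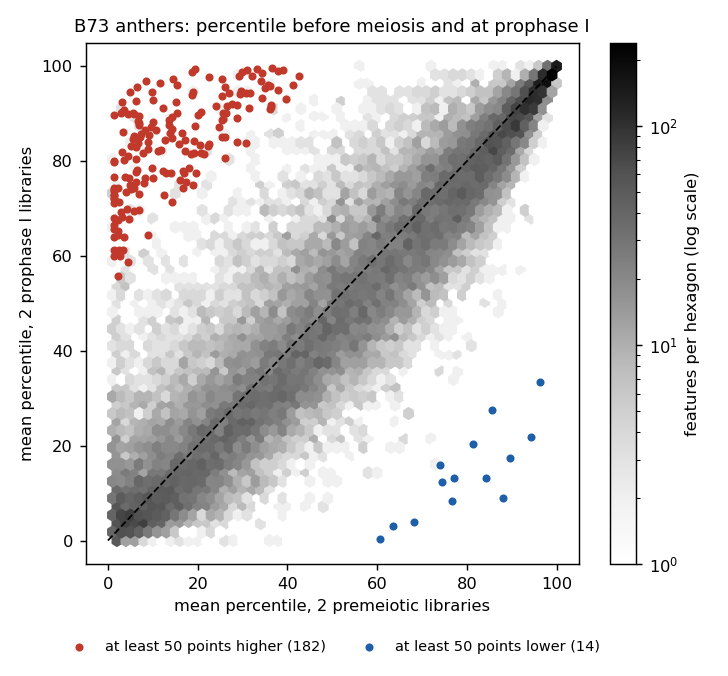
Each gene model by its mean percentile over the 2 premeiotic libraries (horizontal axis) and over the 2 B73 prophase I anther libraries (vertical axis). Grey hexagons give the number of features on a log scale, the dashed line marks equal percentiles, and the 182 gene models (red) and 14 gene models (blue) shifted by at least 50 points in all 4 library pairs lie far from it.

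**Figure D2:**
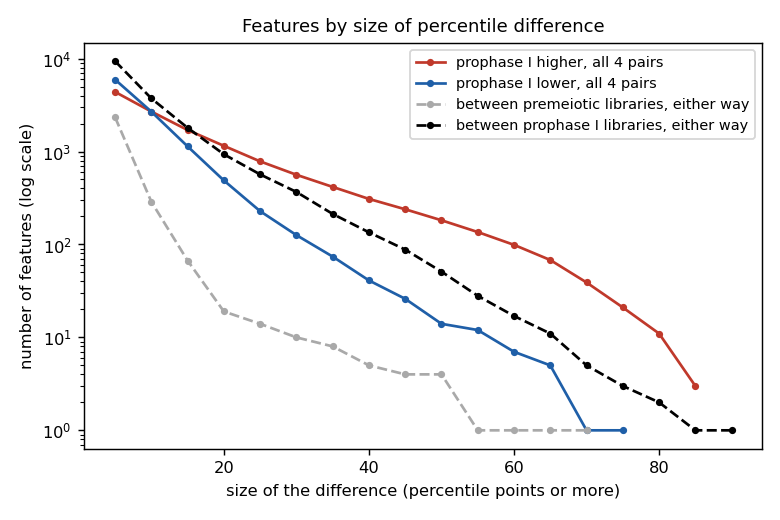
Number of features (vertical axis, log scale) whose percentile differs by at least the size on the horizontal axis (percentile points), for stage shifts in all 4 library pairs (solid lines) and between the libraries of one stage in either direction (dashed lines); sizes with no feature are not drawn. The solid lines need 4 pairs to agree in 1 direction and the dashed lines are 1 pair in either direction, so their heights are not counts of the same kind. At 50 points they stand at 182 rises, 14 falls, 51 differences between prophase I libraries and 4 between premeiotic ones.

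The 182 gene models that rose by at least 50 points were low before meiosis and abundant at prophase I. Their median value was 0.230 and 0.202 in the premeiotic libraries, in the table's unnamed unit, with highest values of 3.14 and 3.56. At prophase I their median was 70.9 and 27.4 TPM, with lowest values of 11.4 and 7.75 TPM. Since 50 points were required, these groups cannot overlap. The median of all compared gene models was 4.595 and 4.557 before meiosis and 8.27 and 6.66 TPM at prophase I. That the rising set moved further than this was fixed by its choice on the same libraries. Of the 182, 135 were under 1 in both premeiotic libraries, and 126 of these reached at least 10 TPM in both prophase I libraries. In both prophase I libraries 173 were at 10 TPM or more and 25 at 100 TPM or more. Of all 25412 compared, 6011 were under 1 in both premeiotic libraries, and 155 of these reached at least 10 TPM in both prophase I libraries. At prophase I 9955 of all were at 10 TPM or more and 1465 at 100 TPM or more in both libraries. The required rise of 50 points largely set these levels. The median percentile of the set was 11.7 and 10.9 before meiosis and 89.8 and 80.2 at prophase I.

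Rises from a listed 0 were few. Of the 415 compared gene models listed at 0 in both premeiotic libraries, 15 were at 10 TPM or more in both prophase I libraries. Their prophase I values ran from 11.4 to 97.0 TPM in replicate 1, with a median of 27.8 TPM, and from 10.2 to 46.1 TPM in replicate 2, with a median of 14.0 TPM. All 15 were among the 182. A listed 0 may be a failed estimate, so no fold change is given for them.

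By the level rule, the gene models named are those with the highest mean in the higher stage, which was prophase I for the rises. Zm00001d026620 read 2.77 and 3.56 in the premeiotic libraries and 185 and 7111 TPM in the B73 prophase I anther libraries. Its prophase I values were far apart, with replicate 2 well above replicate 1, while both lay above both premeiotic values. Its percentile went from 40.1 and 45.2 to 96.0 and 99.98, with a smallest shift of 50.9 points. On log2(value + 1), with each library centred on its median gene model, the prophase I libraries were higher by 7.52 on average, from 4.61 to 10.4 over the library pairs. In ms28 anthers it read 21937 and 8593 TPM. In B73 germ cells it read 6.43 and 164 TPM, again with one library far above the other, and in ms28 germ cells 16.4 and 14.3 TPM.

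Zm00001d053618 read 2.71 and 1.84 before meiosis and 2343 and 652 TPM in B73 prophase I anthers. Here replicate 1 was the higher prophase I library. Its percentile went from 39.6 and 33.3 to 99.9 and 99.2, with a smallest shift of 59.6 points, and its centred log2 difference averaged 7.98. It read 737 and 2051 TPM in ms28 anthers. In germ cells it read 214 and 222 TPM in B73 and 538 and 302 TPM in ms28, in a table normalized separately from that of the anthers.

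The 14 gene models that fell by at least 50 points were at intermediate to high levels before meiosis and near the floor at prophase I. Their premeiotic values ran from 6.58 to 141 in replicate 1 and from 8.55 to 154 in replicate 2, with medians of 22.4 and 20.8. At prophase I they ran from 0 to 2.14 TPM in replicate 1 and from 0 to 4.78 TPM in replicate 2, with medians of 0.620 and 0.825 TPM. Of the 14, 12 were at 10 or more in both premeiotic libraries, as were 8511 of all 25412 compared. Of the 12, 5 were under 1 TPM in both prophase I libraries. No other compared gene model went from 10 or more to under 1 in this way. The median percentile of the set was 80.0 and 78.5 before meiosis and 10.6 and 16.1 at prophase I.

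Zm00001d017495 read 141 and 154 before meiosis and 2.14 and 4.78 TPM at prophase I in B73 anthers. Its percentile fell from 96.0 and 96.4 to 24.4 and 42.4, and its centred log2 difference averaged -5.72. In the other groups it read 2.90 and 2.44 TPM in ms28 anthers, 0.328 and 0.860 TPM in B73 germ cells, and 5.65 and 4.48 TPM in ms28 germ cells.

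Zm00001d018744 read 84.4 and 112 before meiosis and 1.27 and 1.89 TPM at prophase I in B73 anthers. Its percentile fell from 93.5 and 95.02 to 17.7 and 26.2, and its centred log2 difference averaged -5.86. It read 0.270 and 2.08 TPM in ms28 anthers, 1.33 and 2.92 TPM in B73 germ cells, and 6.02 and 3.84 TPM in ms28 germ cells. The choice itself placed both falling gene models lower in the B73 prophase I anther libraries. Being picked for the highest premeiotic mean, both stood near the top before meiosis. Lower ranks in the libraries that the choice did not use were therefore largely favoured by it too. In ms28 anthers and in germ cells both ranked below both premeiotic libraries in every library. The highest of those percentiles was 46.6 for Zm00001d018744 and 45.5 for Zm00001d017495, both in ms28 germ cell replicate 1.

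**Figure D3:**
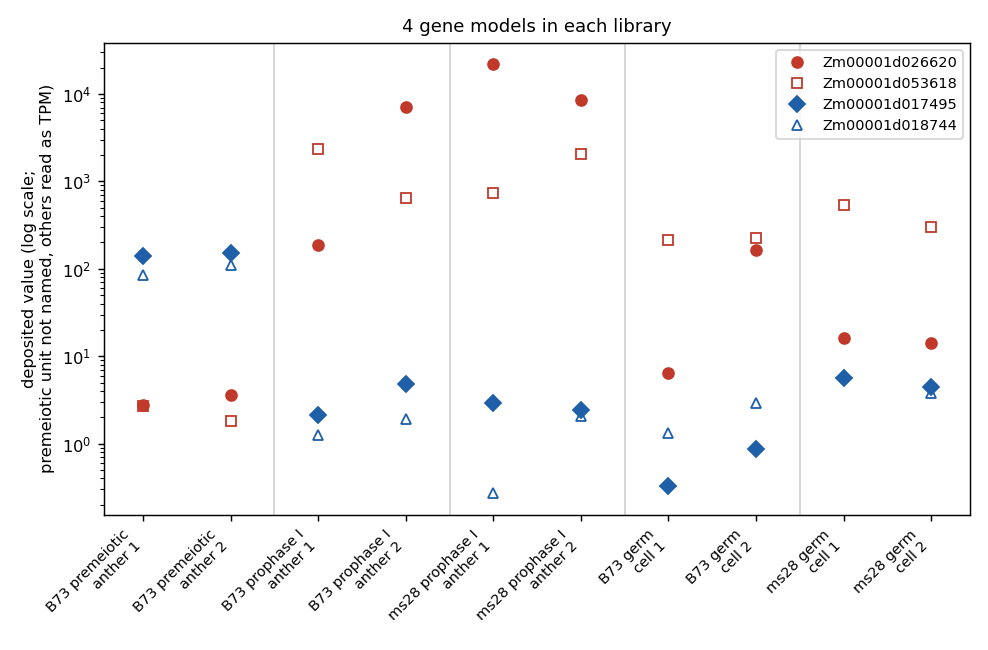
Deposited value (log scale; premeiotic unit not named, all other libraries read as TPM) of the 4 named gene models in each of the 10 libraries. Zm00001d026620 and Zm00001d053618 (red) are higher in both B73 prophase I anther libraries than in both premeiotic libraries, and Zm00001d017495 and Zm00001d018744 (blue) are lower.

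The threshold of 50 points cut through a continuous range. The smallest of the 4 shifts was 50.1 points for the rise just inside it and 49.99 points for the one just outside. For falls these values were -53.5 and -49.7 points. The largest rise by this measure was 86.8 points and the largest fall -77.4 points.

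Ranks compress changes among abundant gene models, so a second scale was used. On centred log2(value + 1), 529 gene models were at least 4-fold higher at prophase I in all 4 pairs (2.08%) and 156 at least 4-fold lower (0.614%). All 182 and all 14 large rank shifts were among them, making up 34.4% of the 4-fold rises and 8.97% of the 4-fold falls. Given the spread of values within these libraries, a rank shift that large is already more than 4-fold on this scale. The inclusion of the large rank shifts therefore followed from their choice and is no separate check of them. The 4-fold rises outside the rank list had a median percentile of 39.0 before meiosis and 85.3 at prophase I, and the corresponding falls 77.9 and 35.1. Without prophase I replicate 2 the 4-fold rises numbered 1122 and the 4-fold falls 594. With a pseudocount of 0.1 they numbered 1110 and 301, and with libraries scaled to equal sums in place of the median the falls numbered 88.

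The prophase I libraries did not contribute alike. Of the 182 large rises, 162 (89.0%) ranked higher in replicate 1 than in replicate 2, against 46.5% of all compared gene models. Of the 783 rises of 25 points or more 81.0% did so, and of the 228 falls of that size 21.5%. Both rises and falls therefore went further in replicate 1. The values of 35 of the 182 (19.2%) differed at least 4-fold between the prophase I libraries, against 5.39% of all compared gene models, where a gene model at 0 in either library is not counted as different. Whether the libraries came from anthers of different progress within prophase I was not tested, since the labels give both the same stage.

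**Figure D4:**
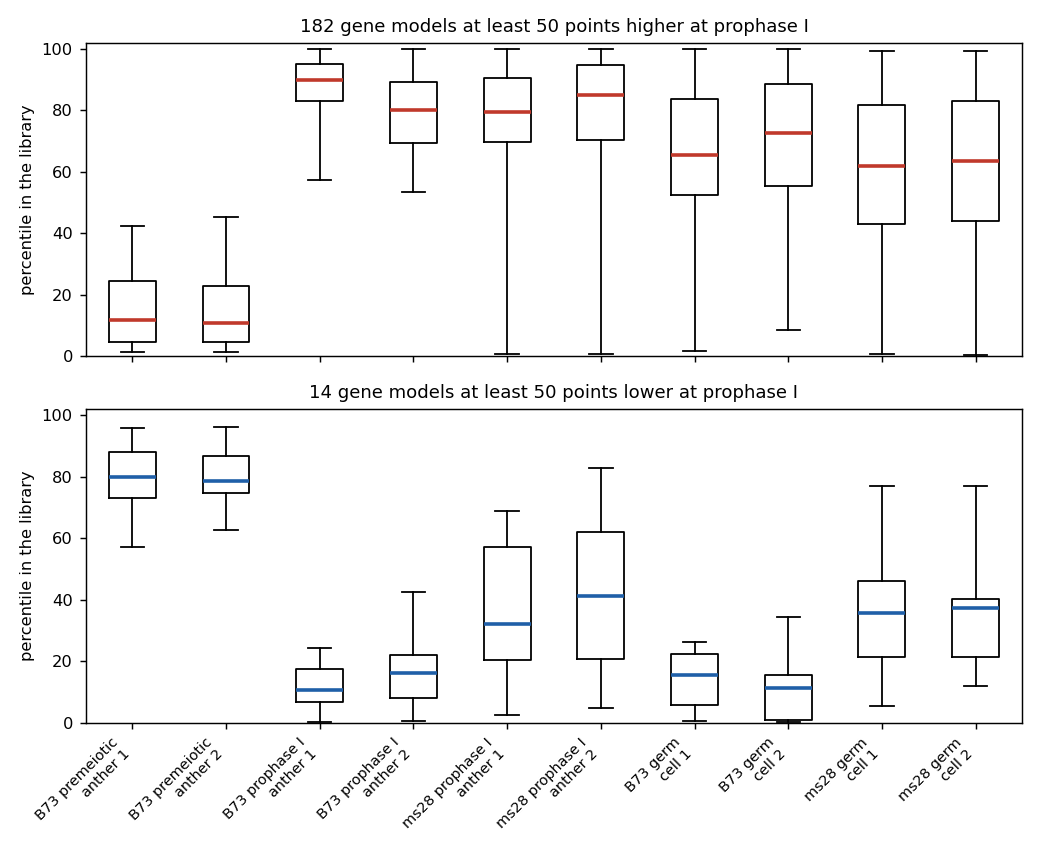
Percentile within each library (vertical axis) of the 182 gene models that rose (top) and the 14 that fell (bottom) by at least 50 points between the 4 B73 anther libraries. Boxes span the quartiles, coloured lines are medians and whiskers reach the lowest and highest member; germ cell percentiles are among the 22377 gene models in all 3 tables (180 and 11 of the members). The sets were chosen on the first 4 libraries; in the others the risen set has medians between 62.0 and 85.1 and the fallen set between 11.2 and 41.2.

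Levels in the 6 libraries that the choice did not use are given side by side, without a test. The risen set had a median percentile of 79.3 and 85.1 in ms28 anthers, where 104 of the 182 (57.1%) were in the top 25% of both libraries, against 22.9% of all compared gene models. Few of the set were low there: 8 (4.40%) were in the bottom 25% of both ms28 anther libraries, against 22.1% of all. In B73 germ cells 180 of the 182 were listed, with median percentiles of 65.6 and 72.7, and 63 (35.0%) were in the top 25% of both libraries, against 22.8% of all. In ms28 germ cells the medians were 62.0 and 63.4, with 56 of 180 (31.1%) in the top 25% against 23.4% of all. There 19 of 180 (10.6%) were in the bottom 25% of both libraries, against 22.7% of all. The 783 that rose by at least 25 points showed no such excess in germ cells. Their smaller cut also admits lower ranks at prophase I. Their median percentile in B73 prophase I anthers was 79.7 and 69.7, against 89.8 and 80.2 for the 182, so the sets differ in part by the cut. Of the 770 listed, 22.5% were in the top 25% of both libraries in B73 and 20.8% in ms28. In ms28 anthers 37.2% of the 783 were.

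The small set that fell by at least 50 points was low in B73 germ cells and more spread out in ms28. Its choice required low ranks in B73 prophase I anthers and set no limit in ms28, so a contrast of this direction was favoured by the choice. Whether gene models this low in B73 were listed because of their ms28 levels was not tested. Of the 14, 11 were listed in the germ cell table. In B73 germ cells 9 of those 11 (81.8%) were in the bottom 25% of both libraries, against 22.1% of all, and the median percentiles were 15.6 and 11.2. In ms28 germ cells 4 of 11 (36.4%) were, against 22.7% of all, with medians of 35.8 and 37.4. In ms28 anthers the medians were 32.2 and 41.2, and 3 of the 14 (21.4%) were in the bottom 25% of both libraries, close to the 22.1% of all. The 228 that fell by at least 25 points differed less between the genotypes in germ cells, where 184 of them were listed. The share in the bottom 25% of both libraries was 60.3% for B73 and 54.3% for ms28. Among ms28 anthers it was lower, at 36.4% of the 228, though above the 22.1% of all.

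Gene models with consecutive ID numbers rose together more often than the overall share. The 783 that rose by at least 25 points had 840 consecutive neighbours among the compared gene models, counting both sides, and 68 of those (8.10%) had risen too, against 3.08% of all. For the 182 the numbers were 12 of 167 (7.19%) against 0.716%, and the longest unbroken run was 3 gene models. The 228 that fell by at least 25 points had 223 such neighbours, of which 4 (1.79%) had fallen, against 0.897%. Positions in the genome were not looked up, and near-identical copies may share reads, so the levels of such neighbours are uncertain.

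Falls to a level at which a gene model was not listed at prophase I could not be followed. The prophase I anther table does not list 18377 of the premeiotic gene models, 50.1% of which were at 0 in both premeiotic libraries. They held 0.894 and 1.04% of the summed premeiotic values. Of the 8581 gene models at 10 or more in both premeiotic libraries, 70 were among them, with a median value of 24.6 and a highest value of 1034. The germ cell table lists 9 of these 70, and 5 of the 9 were at 10 TPM or more in both B73 germ cell libraries. Why these rows are not listed was not tested, and they are not analysed here.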

How the data were processed

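Libraries came from total RNA by a Smart-seq type method with PCR preamplification and tagmentation, which does not mark the strand, per the labels' protocols. The build was B73 RefGen_v4, per the submitters' processing notes. The authors' tools per the submitters' processing notes were HISAT2 2.2.1, Trimmomatic 0.33, featureCounts 2.0.1, DESeq2 and Cufflinks, none tied to a table. Per the file headers, columns give genotype and replicate but no unit. The deposited prophase I values were read as TPM because each column sums to between 99.1 and 99.4% of 1000000. The deposited premeiotic columns sum to 83.0 and 83.2% of 1000000 and were treated as a score of unnamed unit. Whether the authors divided that score by transcript length is not known here. Prophase I columns were matched through table name and header lines, with WT read as B73. Levels set across tables rest on separate normalizations.

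Ranks used average ties and no filter on low values, and 1 value below 0 (-1e-06) was set to 0. Among shifts of at least 50 points, the 2 rises and 2 falls with the highest mean in the higher stage were named; an exception for gene models described earlier from these data changed no choice. Members, rules and lists were chosen with earlier results of these data known. Lists of gene symbols and miRNA families matched 0 compared features. Python 3.11.15, pandas 2.3.3, numpy 2.4.6 and matplotlib 3.10.9 were used. Alternatives were the features ranked, a minimum mean of 1, ties, same-numbered pairs, each library left out, the pseudocount and the scaling.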

Additional observations from a re-analysis of the deposited data

How the results depend on the processing

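Every alternative counted only gene models listed at both stages, so none could count a gene model lost from the prophase I list as a fall. Within that limit, the order of the counts (more large rises than large falls) held under every alternative except ranking each table over all its own features. That ranking places the shared gene models among 18377 others in the premeiotic table only, which lowers the shifts by construction. It gave 19 rises and 136 falls of at least 50 points, 158 and 7797 of at least 25 points, and 1321 and 22194 of any size. A minimum mean of 1 gave 27 falls of at least 50 points and 391 of at least 25 points. A pseudocount of 0.1 gave 1110 4-fold rises and 301 4-fold falls, and equal sums gave 88 4-fold falls. Leaving out 1 library can only add calls. It gave from 196 to 382 rises and 14 to 81 falls of at least 50 points, 875 to 1584 and 274 to 777 of at least 25 points, 8687 to 9875 and 12890 to 13871 of any size, and 575 to 1122 and 169 to 594 of at least 4-fold, with the highest of each coming without prophase I replicate 2. With same-numbered library pairs only, as a replicate block, 199 rises and 16 falls of at least 50 points were counted. The mean shifts of the 4 named gene models kept their direction in all 36 alternatives, with sizes from 31.7 to 86.1 points. Counts of miRNA loci had no alternative, since the premeiotic table holds 0. No interval is given across the separately normalized tables, and the depth that limits low values is unknown.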

Other observations

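The prophase I anther table holds 48 miRNA loci, the only features with names, and none has a premeiotic value. Their levels in B73 prophase I anthers are therefore given alone, as values of replicates 1 and 2 read as TPM. The precursors of MIR159, a family that targets GAMYB factors of the anther, were among the highest after MIR2275c: MIR159g read 655 and 177 TPM, with replicate 1 above replicate 2. MIR159a, of the same family, read 0.370 and 0.530 TPM, so the abundance was not shared by all its loci. The 5 precursors of families that target copper proteins differed widely. MIR408b read 235 and 80.0 TPM, MIR398a 128 and 48.1 TPM and MIR398b 11.3 and 5.13 TPM, all higher in replicate 1. MIR528a read 50.3 and 58.3 TPM, higher in replicate 2, and MIR397b was lowest at 0.67 and 0.60 TPM.

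Of the triggers of 21-nt phasiRNAs, MIR2118g read 10.5 and 13.0 TPM, MIR2118a 5.44 and 9.01 TPM and MIR2118c 1.76 and 3.58 TPM, all 3 higher in replicate 2. Among loci whose families target the small RNA machinery itself, MIR168b, of a family that targets AGO1, stood near the middle of the table at 8.18 and 7.79 TPM. MIR168a read 2.95 and 3.11 TPM, and MIR162, of a family that targets DCL1, read 1.15 and 0.970 TPM. MIR390a, of the family that triggers trans-acting siRNAs from TAS3, read 1.11 and 0.80 TPM. The libraries were close to each other at these 4 loci. Over the 48 loci, 17 had a mean of 10 TPM or more and 10 a mean under 1 TPM. The median of their means was 4.08 TPM, against 7.61 TPM for all features of the table.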
